A study of Arabidopsis thaliana with 12 samples.

Results

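Gibberellins are plant growth hormones, and the 10 genes described here set how much active gibberellin a tissue holds and how strongly it is answered. They are GA20ox1, GA20ox2, GA3ox1, GA2ox1, GA2ox2, GA2ox4, GA2ox6, GA2ox8, RGA and GAI, taken by locus identifier for their known roles. The choice was made with earlier results of these data known. Counts of these genes set beside the share of all genes are therefore descriptions. All 10 were among the 25424 genes of the count table, and all 10 passed the filter on low counts that left 21897 genes to test. The tissue was the dissected inflorescence meristem of Arabidopsis thaliana, the shoot tip that forms flowers, sequenced as RNA in 12 libraries, 3 in each of 4 groups. The groups were wild type (written col0 in the labels) in low humidity, col0 in high humidity, and a mutant in low and in high humidity. The mutant, pip2 or pip2d in the labels and pip2;5 in the design text, is called pip2 here. PIP2;5 encodes a water channel of the plasma membrane, and PIP2D is a listed synonym of that gene. No source used here gives the allele, the plants' age, the humidity values or whether a replicate was 1 plant or a pool. The p-values therefore cover only the spread among the libraries, which may be technical.

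Gibberellin 20-oxidases (GA20ox) carry out the oxidations that lead to the direct precursors of active gibberellin, and a gibberellin 3-oxidase (GA3ox) makes the active hormone from them. Gibberellin 2-oxidases (GA2ox) inactivate the hormone or its precursors. RGA and GAI are DELLA proteins, repressors of growth that are destroyed once the hormone binds its receptor. In the shoot apex, KNOX proteins such as STM are known to keep gibberellin low by repressing a GA20ox gene and by favouring GA2ox genes. Gibberellin is also known to feed back on its own pathway, lowering GA20ox and GA3ox transcripts and raising GA2ox transcripts.

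Library totals ran from 17850187 to 28445060 counts, and Pearson's r of log2 CPM within groups, across genes, was 0.982 to 0.990. PIP2;5 (AT3G54820), which checks the labels, had a mean of 70.7 ± 0.877 CPM in low and 50.8 ± 1.32 CPM in high humidity in col0 (SD, n = 3), against 0.785 ± 0.348 and 0.961 ± 0.204 CPM in pip2. CPM are counts scaled to a common library total. Of 6 marker genes of meristem and young flower, 5 were in the table and none of these was at 0 in any group. The stem cell gene CLV3 was absent from the table. The summed level of the 5 was 266 to 309 CPM over all 12 libraries. Its largest part was the flower gene AP1, at 166 ± 14.8 CPM in col0 at low humidity. Markers of other tissues were present too, among them the anther gene GRP17 at 1804 ± 282 CPM in col0 at low humidity.

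Per length, the DELLA genes were the most abundant of the 10 and GA2ox4 and GA2ox6 the least. The authors' TPM values, which are scaled for length and depth, allow this comparison between genes. In col0 at low humidity RGA (AT2G01570, chromosome 2) stood at 90.2 ± 2.50 TPM and GAI (AT1G14920, chromosome 1) at 53.0 ± 4.83 TPM (mean ± SD, n = 3). The inactivating enzymes GA2ox2 (AT1G30040, chromosome 1) and GA2ox1 (AT1G78440, chromosome 1) followed at 25.8 ± 2.11 and 15.3 ± 1.86 TPM. GA20ox2 (AT5G51810, chromosome 5) came next at 6.89 ± 0.842 TPM, before GA20ox1 (AT4G25420, chromosome 4) at 4.54 ± 0.640 and GA2ox8 (AT4G21200, chromosome 4) at 4.01 ± 0.321 TPM, whose libraries overlapped.

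GA3ox1 (AT1G15550, chromosome 1) stood at 2.02 ± 0.538 TPM in the same group. GA2ox6 (AT1G02400, chromosome 1) at 1.23 ± 0.354 TPM and GA2ox4 (AT1G47990, chromosome 1) at 0.802 ± 0.335 TPM overlapped. All other neighbours in this order were separate in all 3 libraries. The order changed in the mutant at low humidity, where GA2ox1 (16.4 ± 1.40 TPM) and GA2ox2 (15.2 ± 0.598 TPM) overlapped and GA2ox8 was at rank 9 with 1.88 ± 0.331 TPM, overlapping GA2ox6. In both high-humidity groups GA2ox2 again lay above GA2ox1 in every library, at 16.5 ± 2.32 against 12.2 ± 0.821 TPM in col0 and 14.2 ± 2.71 against 10.6 ± 0.908 TPM in pip2.

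**Figure D1:**
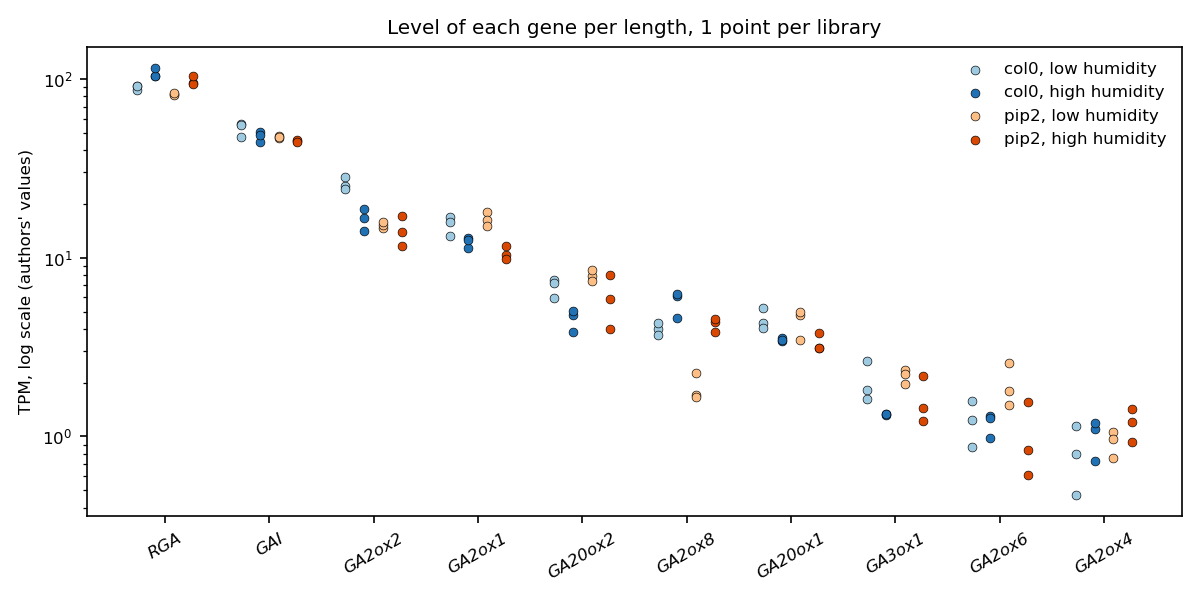
TPM of each of the 10 genes on a log axis, 1 point per library, with colours for genotype and humidity and genes ordered by their mean. RGA and GAI lie highest, GA2ox4 and GA2ox6 lowest, and the pip2 low-humidity points of GA2ox8 lie below its points of the other 3 groups.

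The first question is how these genes respond to humidity in the wild type. In col0 4 of the 10 passed the test: GA20ox2 and GA2ox2 fell and GA2ox8 and RGA rose in high humidity. The test was edgeR's quasi-likelihood test with adjustment over all tested genes and a threshold of 0.05, by which 30.2% of all genes were called (14.3% higher, 15.9% lower), so 4 of 10 is near that background. The libraries of both humidities did not overlap for 6 of the 10, against 44.8% of all genes. The median log2 fold change of the 10 was -0.24, against -5.59e-05 for all tested genes. In these bulk samples fewer cells of a type and less RNA per cell cannot be told apart.

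The synthesis genes were lower in high humidity in every col0 library, but only GA20ox2 passed the test. GA20ox2 had 6.74, 5.37 and 6.45 CPM in low-humidity replicates 1, 2 and 3 and 4.33, 4.43 and 3.31 CPM in those of high humidity. No high-humidity library reached the lowest of the low-humidity ones. The log2 fold change was -0.63 ± 0.21 (edgeR adjusted p = 0.0312). The call was near the threshold and was lost with some libraries left out. Without col0 low replicate 1 or 3 the adjusted p was 0.1003 or 0.0871. Without col0 high replicate 2 or 3 it was 0.0532 or 0.136 (range over the 12 left-out libraries 0.0121 to 0.136). The log2 fold change stayed below 0 with each library left out, at -0.72 to -0.50. On the TPM values limma gave adjusted p = 0.0585 with a pseudocount of 1 and 0.0582 with 0.1.

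GA20ox1 had 3.85 to 4.79 CPM at low and 3.07 to 3.29 CPM at high humidity in col0. Its libraries were separate too, with a log2 fold change of -0.41 ± 0.19 that did not pass (edgeR adjusted p = 0.105). GA3ox1, the gene of the activating step, had 1.60 to 2.69 CPM at low and 1.25 to 1.37 CPM at high humidity, from 24 to 55 counts per library. Its log2 fold change of -0.65 ± 0.27 did not pass either (edgeR adjusted p = 0.0774). Summed over these 3 genes the level was 13.4 ± 1.71 TPM at low and 9.36 ± 0.651 TPM at high humidity in col0.

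In pip2 the same 3 genes had log2 fold changes below 0 with overlapping libraries, and none passed. GA20ox2 had 6.86, 6.70 and 7.97 CPM at low humidity and 7.32, 5.53 and 3.69 CPM at high humidity. Replicate 1 at high humidity lay among the low-humidity libraries, and replicates 2 and 3 lay below them. The log2 fold change was -0.38 ± 0.20 (edgeR adjusted p = 0.195), and it was -0.63 (adjusted p = 0.0397) without pip2 high replicate 1. Over the 12 left-out libraries the adjusted p ran from 0.0397 to 0.592. GA20ox1 and GA3ox1 changed by -0.39 ± 0.19 and -0.48 ± 0.27 (edgeR adjusted p = 0.150 and 0.206). The summed level of the 3 synthesis genes was 14.5 ± 0.451 TPM at low and 10.9 ± 1.44 TPM at high humidity in pip2.

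**Figure D2:**
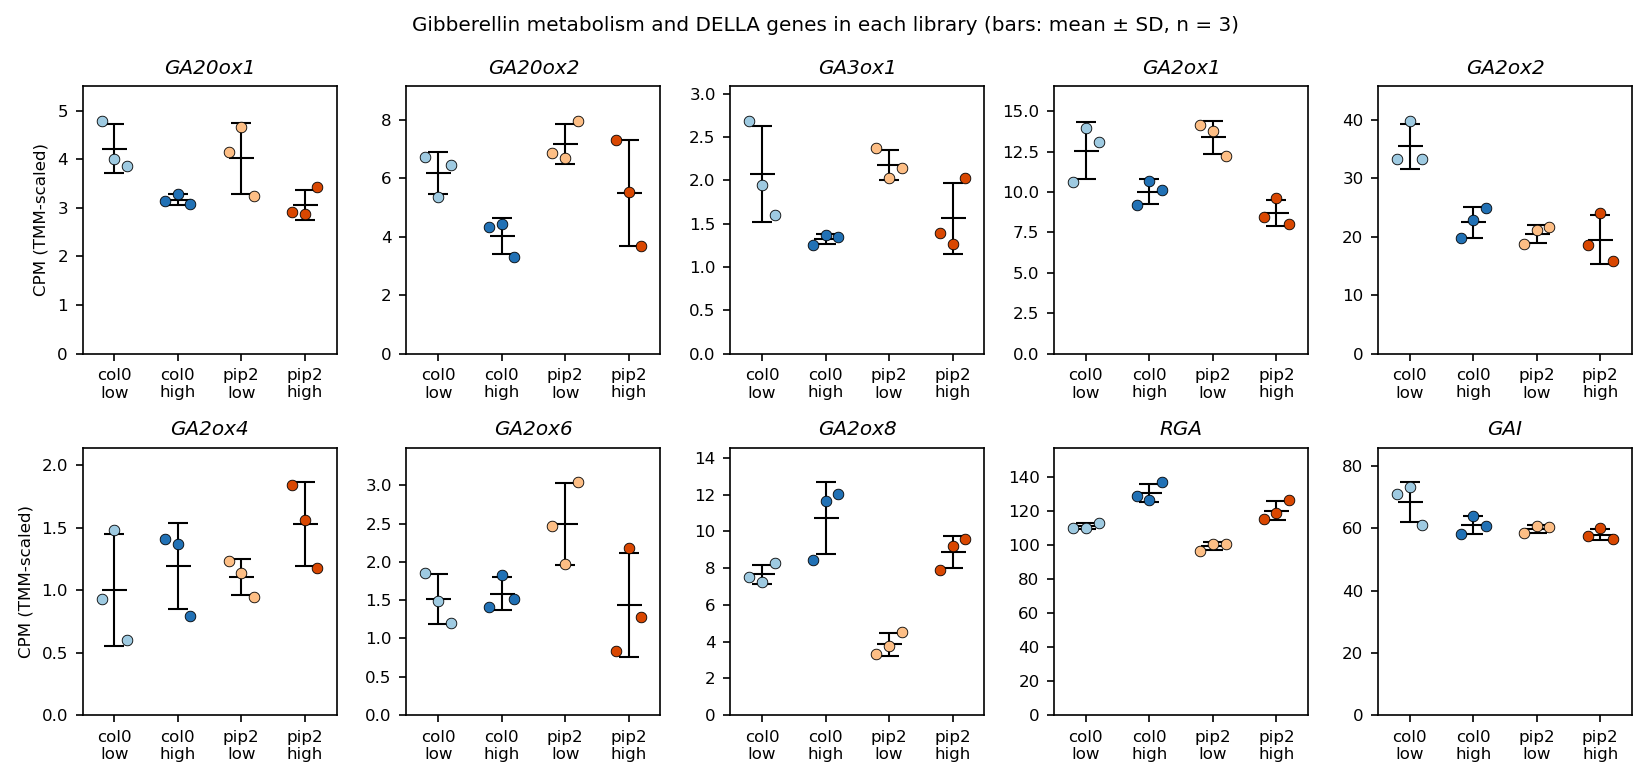
CPM of each of the 10 genes in every library, grouped by genotype and humidity, with each axis starting at 0 and bars for mean ± SD (n = 3). GA2ox8 is lowest in pip2 at low humidity (3.31 to 4.53 CPM), GA2ox2 is highest in col0 at low humidity (33.3 to 39.9 CPM), and RGA is higher in high humidity in both genotypes.

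The 5 inactivating enzymes did not move together. GA2ox1, GA2ox2, GA2ox4 and GA2ox6 act on active gibberellin and its direct precursors, while GA2ox8 acts on earlier precursors with a longer carbon skeleton. GA2ox2 had 33.3, 39.9 and 33.3 CPM in col0 at low humidity and 19.7, 22.8 and 24.9 CPM at high humidity. Every high-humidity library lay below every low-humidity one, and the gene fell by 0.65 ± 0.13 on the log2 scale (edgeR adjusted p = 0.00223). This call held with each library left out in turn (adjusted p 0.000105 to 0.0130). In pip2 the gene had 18.8, 21.1 and 21.7 CPM at low humidity and 18.6, 24.1 and 15.8 CPM at high humidity. Those libraries overlapped, with a log2 fold change of -0.069 ± 0.14 (edgeR adjusted p = 0.768) that turned to 0.061 without pip2 high replicate 3.

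GA2ox8 rose with humidity in both genotypes. In col0 it had 7.52, 7.25 and 8.25 CPM at low humidity and 8.45, 11.7 and 12.01 CPM at high humidity. Replicate 1 at high humidity was only just above the low-humidity libraries. The log2 fold change was 0.48 ± 0.15 (edgeR adjusted p = 0.0249), and the call was lost without col0 low replicate 1 or 2 (adjusted p = 0.0711 and 0.0751) and without col0 high replicate 2 or 3 (0.0897 and 0.118), in a range of 0.00590 to 0.118. It was also lost with limma on log2(TPM + 0.1), at adjusted p = 0.0523.

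In pip2 GA2ox8 had 3.31, 3.74 and 4.53 CPM at low humidity and 7.88, 9.18 and 9.57 CPM at high humidity. The groups were far apart, and the gene was 2.30-fold higher in high humidity (log2 fold change 1.202 ± 0.17, edgeR adjusted p = 5.12e-05). The call held with each library left out (adjusted p 2.42e-05 to 0.000596). This was the largest humidity response among the 10 genes in either genotype.

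GA2ox1 had log2 fold changes below 0 in both genotypes but passed only in pip2. There it had 14.2, 13.8 and 12.2 CPM at low humidity and 8.44, 9.62 and 8.02 CPM at high humidity. The groups did not overlap, and the gene fell by 0.62 ± 0.13 on the log2 scale (edgeR adjusted p = 0.00162). In col0 it had 10.6, 13.99 and 13.1 CPM at low humidity and 9.18, 10.7 and 10.1 CPM at high humidity, where col0 low replicate 1 lay among the high-humidity libraries. Its log2 fold change there was -0.32 ± 0.12 (edgeR adjusted p = 0.0570), and it passed with a replicate block (adjusted p = 0.0357), with limma on the TPM values (0.0485 and 0.0477 with pseudocounts of 1 and 0.1) and without col0 low replicate 1 (0.0195), in a range of 0.0195 to 0.205 over the left-out libraries. The difference between the genotypes was not called (interaction log2 -0.30 ± 0.18, edgeR adjusted p = 0.754).

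GA2ox4 and GA2ox6 were low, at 12 to 61 counts per library, and neither passed in any comparison. GA2ox4 ranged from 0.600 to 1.84 CPM over the 12 libraries and its groups overlapped in each comparison. GA2ox6 had 1.97 to 3.04 CPM in pip2 at low humidity and 0.838 to 2.18 CPM in pip2 at high humidity. Its log2 fold change in pip2 was -0.77 ± 0.31 (edgeR adjusted p = 0.0840), and -1.23 without pip2 high replicate 2 (adjusted p = 0.0134, the lowest of the 12 left-out libraries, whose highest was 0.267). In col0 its log2 fold change was 0.065 ± 0.32, and its sign turned with the TPM values.

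Together the 5 GA2ox genes summed to 47.2 ± 3.45 TPM in col0 at low humidity and 36.5 ± 3.92 TPM at high humidity. In pip2 they summed to 36.4 ± 0.695 TPM at low and 31.2 ± 4.10 TPM at high humidity. GA2ox2 made up 54.7% ± 1.69 of the sum in col0 at low humidity and 41.9% ± 2.15 in pip2 at low humidity. GA2ox8 made up 8.55% ± 1.18 (low) and 15.4% ± 0.848 (high) of the sum in col0, and 5.14% ± 0.894 (low) and 13.8% ± 2.25 (high) in pip2. These sums and shares are descriptions of the chosen genes and carry no test.

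The DELLA genes differed from each other. RGA had 110, 110 and 113 CPM in col0 at low humidity and 129, 126 and 137 CPM at high humidity. In pip2 it had 96.8, 101 and 101 CPM at low and 116, 119 and 127 CPM at high humidity. Within each genotype every high-humidity library lay above every low-humidity one. RGA rose by 0.23 ± 0.054 on the log2 scale in col0 (edgeR adjusted p = 0.00387) and by 0.27 ± 0.055 in pip2 (adjusted p = 0.00149), which is 1.17-fold and 1.21-fold. Both calls held with each library left out (adjusted p of at most 0.0290 and 0.0102).

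GAI did not pass in either genotype. It had 61.1 to 73.1 CPM at low and 58.2 to 64.0 CPM at high humidity in col0, and 58.4 to 60.7 and 56.6 to 60.0 CPM in pip2. The log2 fold change was -0.16 ± 0.066 in col0 (edgeR adjusted p = 0.0725) and -0.045 ± 0.067 in pip2 (adjusted p = 0.682). In col0 it passed with a replicate block (adjusted p = 0.0410) and without col0 low replicate 3 (0.0128), in a range of 0.0128 to 0.261 over the left-out libraries. RGA and GAI are close relatives, so reads may have been split between them, which was not tested. Summed, RGA and GAI stood at 143 ± 4.52 TPM at low and 155 ± 7.57 TPM at high humidity in col0, and at 129 ± 1.47 and 142 ± 4.56 TPM in pip2. This is not the sum of all DELLA genes, since RGL1, RGL2 and RGL3 are left out.

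In pip2, then, 3 of the 10 genes passed for humidity (GA2ox8 and RGA rose, GA2ox1 fell), where 24.2% of all genes were called, 12.3% higher and 11.9% lower. The groups did not overlap for 3 of the 10, against 38.1% of all genes. The median log2 fold change of the 10 was -0.23, against 0.01 for all tested genes. The number of members called was 3 under all of the other settings and 3 to 4 with single libraries left out. In col0 it was 3 to 6 under the other settings, and it dropped to 2, GA2ox2 and RGA, without col0 high replicate 2 or without col0 high replicate 3.

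**Figure D3:**
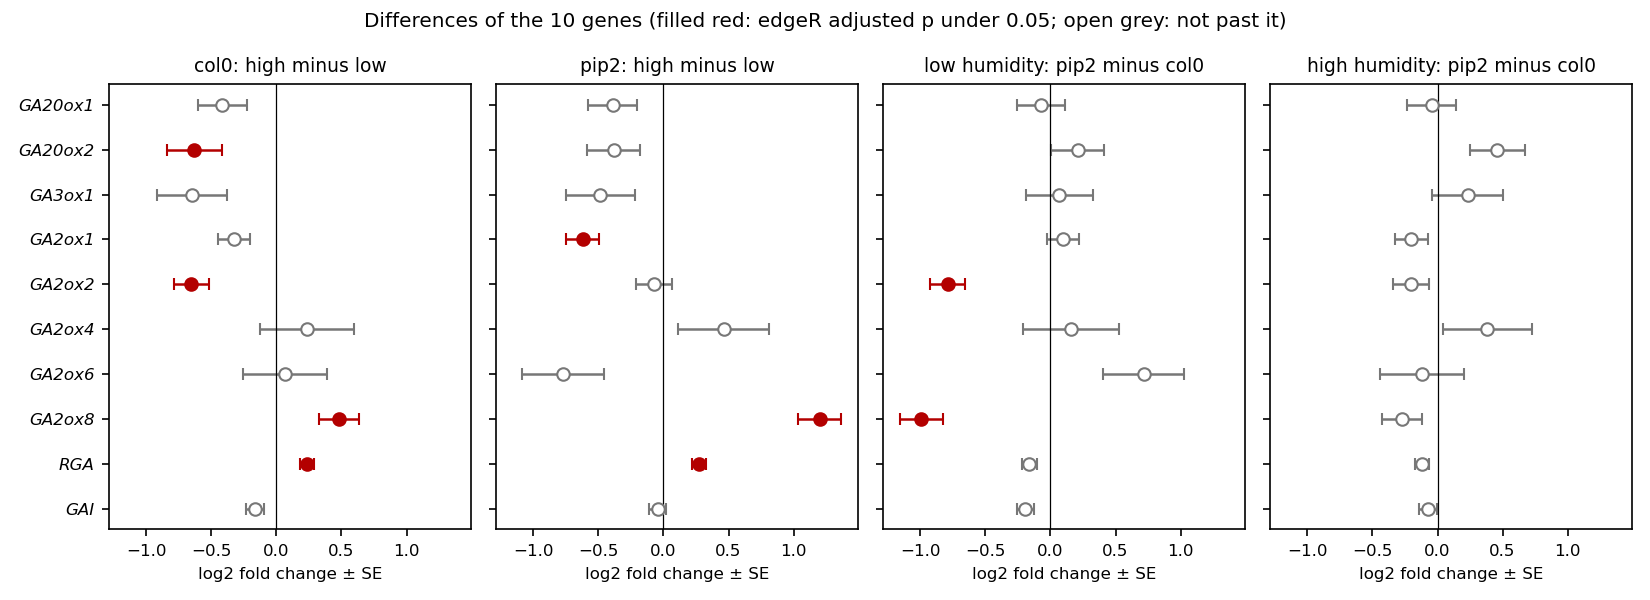
Log2 fold changes ± SE of the 10 genes for humidity in each genotype and for genotype at each humidity, filled red where the edgeR adjusted p was under 0.05. In low humidity GA2ox2 (-0.79) and GA2ox8 (-0.99) are lower in pip2, and at high humidity no gene is filled.

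The second question is how the mutant differs from the wild type. At low humidity 2 of the 10 genes passed, and both were GA2ox genes that were lower in pip2. Among all genes 2.98% were called there (0.900% higher and 2.08% lower), or 1085 genes in place of 652 with a replicate block, and the same number of members passed with it. GA2ox8 had 7.25 to 8.25 CPM in col0 and 3.31 to 4.53 CPM in pip2. The mutant level was 0.503 of the wild-type level (log2 difference -0.99 ± 0.17, edgeR adjusted p = 0.00185). GA2ox2 had 33.3 to 39.9 CPM in col0 and 18.8 to 21.7 CPM in pip2, so the mutant level was 0.579 of the wild-type level (log2 difference -0.79 ± 0.14, edgeR adjusted p = 0.00416). Neither gene's libraries overlapped between genotypes, and both calls held with each library left out (adjusted p of at most 0.0178 for GA2ox8 and 0.0333 for GA2ox2).

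Libraries of the genotypes also did not overlap at low humidity for RGA, GAI and GA2ox6, so 5 of the 10 were separate, against 19.6% of all genes. The median log2 difference of the 10 was -0.0016, against -0.0028 for all tested genes. RGA stood at 111 ± 1.64 CPM in col0 and 99.6 ± 2.40 CPM in pip2, with a log2 difference of -0.16 ± 0.055 that did not pass (edgeR adjusted p = 0.154). GAI stood at 68.4 ± 6.38 and 59.8 ± 1.27 CPM, with a log2 difference of -0.19 ± 0.067 (edgeR adjusted p = 0.167). It passed without col0 low replicate 3 (adjusted p = 0.0400), in a range of 0.0400 to 0.430 over the left-out libraries. GA2ox6 stood at 1.51 ± 0.329 and 2.49 ± 0.532 CPM, with a log2 difference of 0.72 ± 0.31 in the other direction to GA2ox2 and GA2ox8 (edgeR adjusted p = 0.309).

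The synthesis genes were close between genotypes at low humidity. The log2 difference was -0.070 ± 0.18 for GA20ox1, 0.21 ± 0.20 for GA20ox2 and 0.067 ± 0.26 for GA3ox1, with overlapping libraries in each case. The signs of GA20ox1 and GA3ox1 turned with 1 library left out. GA2ox1 stood at 12.6 ± 1.76 CPM in col0 and 13.4 ± 1.01 CPM in pip2.

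At high humidity none of the 10 passed between genotypes by edgeR, DESeq2 or limma, where edgeR called 0.589% of all genes (0.201% higher, 0.388% lower). At an unadjusted p under 0.05 there were 2 in edgeR, GA20ox2 (0.46 ± 0.21, adjusted p = 0.563) and RGA (-0.12 ± 0.054, adjusted p = 0.552). Among all 21897 tested genes 1885 had such a p. For humidity such a p was found for 8 of the 10 in col0 and 4 in pip2, beside 8788 and 7802 genes. For genotype at low humidity the count was 5, beside 3006 genes. At high humidity no gene of the 10 had separate libraries between genotypes, against 14.0% of all genes. The median log2 difference of the 10 was -0.097, against 0.0072 for all tested genes. GA2ox8 stood at 10.7 ± 1.96 CPM in col0 and 8.88 ± 0.887 CPM in pip2 (log2 difference -0.27 ± 0.15, edgeR adjusted p = 0.656). GA2ox2 stood at 22.5 ± 2.58 and 19.5 ± 4.21 CPM (log2 difference -0.20 ± 0.14, edgeR adjusted p = 0.738). The mutant differences of both genes were thus seen past the test at low humidity, and at high humidity they did not pass.

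Whether the humidity response itself differed between genotypes was tested by the interaction. None of the 10 passed by edgeR, DESeq2 or limma, where edgeR called 0.443% of all genes (0.356% higher, 0.0868% lower). The median of the 10 was 0.14, against 0.015 for all tested genes. At an unadjusted p under 0.05 there were 2, GA2ox8 and GA2ox2, beside 1616 of all 21897 tested genes. The response of GA2ox8 was larger in pip2 by 0.72 ± 0.23 on the log2 scale (unadjusted p = 0.00550, edgeR adjusted p = 0.317). The response of GA2ox2 in pip2 was above that in col0 by 0.59 ± 0.19 (unadjusted p = 0.00897, adjusted p = 0.388). The adjusted p stayed above the threshold in all alternatives, at 0.0885 to 0.642 for GA2ox8 and 0.113 to 0.708 for GA2ox2. A difference between the genotypes in these responses is therefore not shown. For RGA the interaction was 0.041 ± 0.077, and for GAI 0.12 ± 0.094.

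Of 48 further gibberellin genes in 5 lists, 44 were in the count table and 41 were tested. GA20ox3, GA20ox4, GA20ox5 and GA3ox4 were absent from the table. In col0 12 of the 41 passed for humidity, 8 higher and 4 lower, with a median log2 fold change of 0.10. In pip2 14 passed, 8 higher and 6 lower, with a median of 0.08. These shares stand beside the 30.2% and 24.2% of all genes given above.

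Of 5 genes of early synthesis, KS fell in both genotypes and KAO2 rose in col0. KS (AT1G79460) encodes ent-kaurene synthase, which makes the hydrocarbon skeleton of the hormone. Its level was 43.6 ± 0.190 CPM in low and 34.7 ± 1.90 CPM in high humidity in col0, and in pip2 44.1 ± 0.854 and 34.1 ± 2.96 CPM. Its log2 fold changes were -0.33 ± 0.069 (edgeR adjusted p = 0.00174) and -0.37 ± 0.069 (adjusted p = 0.000807). KAO2 (AT2G32440), an ent-kaurenoic acid oxidase, rose by 0.22 ± 0.068 in col0 (edgeR adjusted p = 0.0216), a call lost without col0 low replicate 1 or col0 high replicate 3 (adjusted p = 0.0929 and 0.0780, range 0.0108 to 0.0929).

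Among the other oxidases and inactivating enzymes 1 of 5 tested genes passed in each genotype, CYP714A1 (AT5G24910), a cytochrome P450 that lowers active gibberellin when overproduced. It rose by 0.54 ± 0.17 in col0 and 0.52 ± 0.16 in pip2 (edgeR adjusted p = 0.0226 and 0.0278). Each call was lost without any of 4 libraries (adjusted p of at most 0.105 in col0 and 0.116 in pip2): col0 low replicates 1 and 2 and col0 high replicates 2 and 3, and pip2 low replicates 2 and 3 and pip2 high replicates 1 and 3. In pip2 it was also lost with limma on the TPM values (0.0572 and 0.0791). The gene stood at 4.03 ± 0.890 CPM in col0 and 5.81 ± 0.716 CPM in pip2 at low humidity, a difference that did not pass (edgeR adjusted p = 0.137).

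The receptor gene GID1C and the DELLA gene RGL1 moved in opposite directions in both genotypes. GID1C (AT5G27320) had 9.43, 9.25 and 9.65 CPM in col0 at low humidity and 13.0, 15.7 and 17.6 CPM at high humidity. It rose by 0.72 ± 0.12 (edgeR adjusted p = 0.000216), and in pip2 by 0.45 ± 0.12 (adjusted p = 0.00947), with no overlap between humidities in either. The other receptor genes, GID1A and GID1B, did not pass in either genotype.

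RGL1 (AT1G66350), another DELLA gene, had 183, 222 and 203 CPM in col0 at low humidity and 135, 131 and 133 CPM at high humidity. It fell by 0.61 ± 0.076 in col0 (edgeR adjusted p = 1.90e-05) and by 0.58 ± 0.076 in pip2 (adjusted p = 3.35e-05), while RGA rose. Per length RGL1 stood at 184 ± 13.2 TPM in col0 at low humidity, above RGA. In pip2 SPY (AT3G11540), an enzyme that modifies DELLA proteins, rose by 0.24 ± 0.064 (edgeR adjusted p = 0.0128), and RGL2 (AT3G03450), another DELLA gene, fell by 0.23 ± 0.071 (adjusted p = 0.0247). In col0 neither passed. RGL2 was lower in high humidity there too, at 140 to 159 CPM in low and 129 to 135 CPM in high humidity. SPY stood at 61.6 ± 2.09 and 66.0 ± 2.76 CPM in col0. Neither gene passed the interaction test. SPY lost its call without pip2 high replicate 1 or 3 (adjusted p = 0.0646 and 0.0502, range 0.00204 to 0.0646) and with limma on the TPM values (0.0695 and 0.0685). RGL2 lost its call without pip2 low replicate 2 or 3 or pip2 high replicate 3 (0.119, 0.0858 and 0.107, range 0.00439 to 0.119) and in a fit of the 2 groups alone (0.0581).

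**Figure D4:**
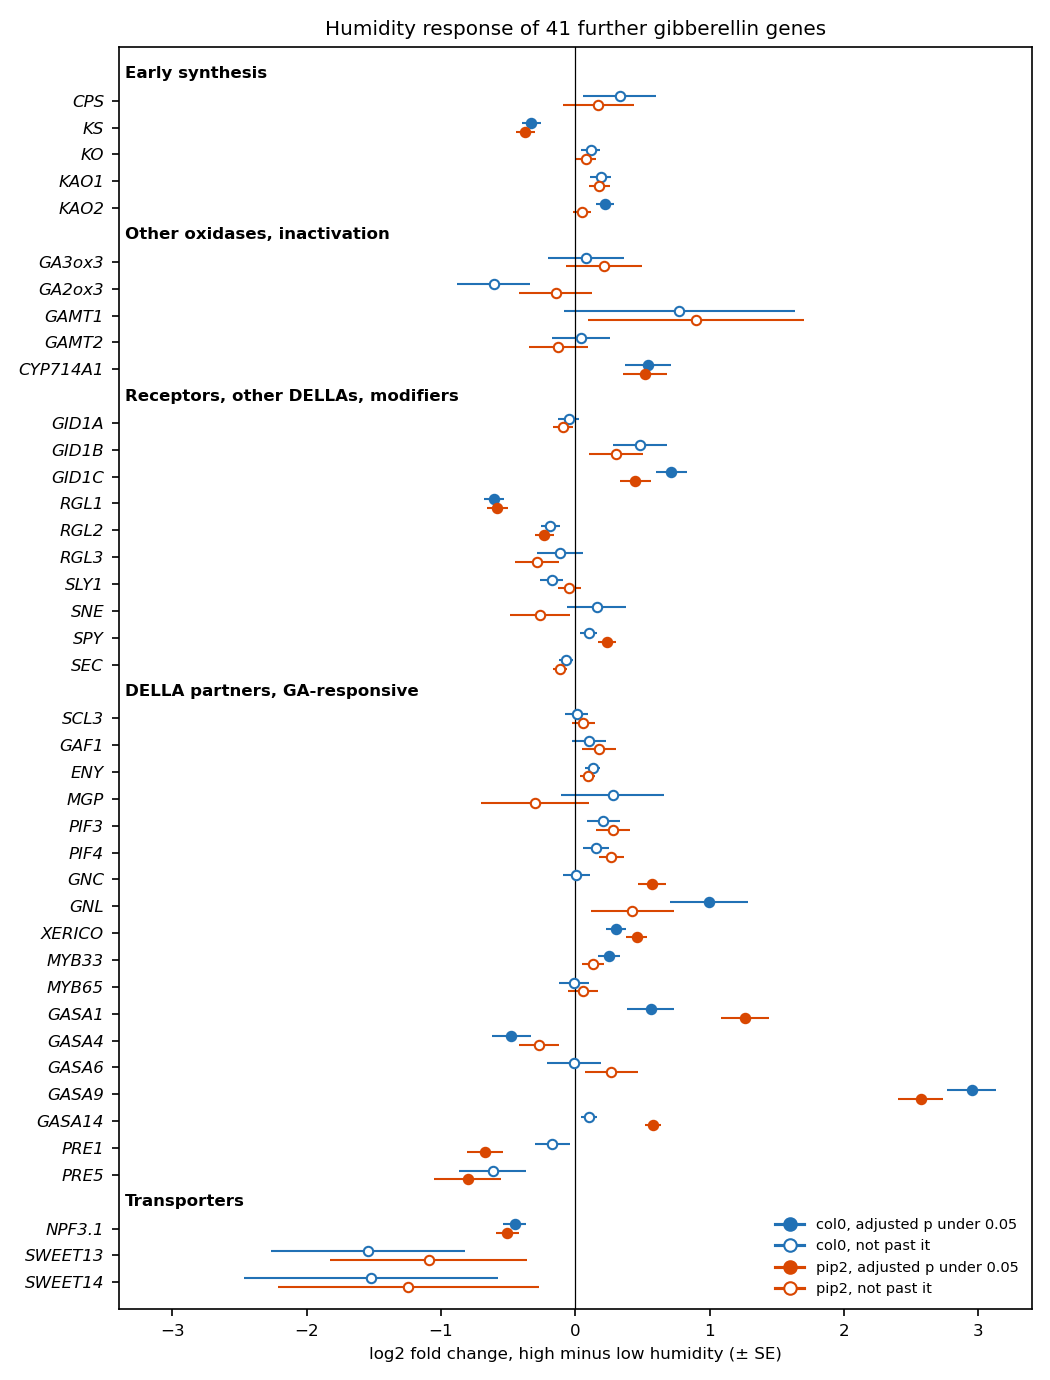
Log2 fold change ± SE for humidity of 41 further gibberellin genes in col0 (blue) and pip2 (orange), by list, filled where the edgeR adjusted p was under 0.05. GASA9 lies farthest to the right in both genotypes (2.95 and 2.57), and KS, RGL1 and NPF3.1 lie left of 0 in both.

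Of 18 DELLA partners and gibberellin-responsive genes, 5 rose and 1 fell in col0 and 5 rose and 2 fell in pip2. GASA9 (AT1G22690), of a family of small cysteine-rich peptides with gibberellin-responsive members, rose from 2.001 ± 0.698 to 15.5 ± 0.757 CPM in col0 and from 3.72 ± 0.617 to 22.1 ± 2.02 CPM in pip2. These are log2 fold changes of 2.95 ± 0.18 (edgeR adjusted p = 1.22e-08) and 2.57 ± 0.17 (adjusted p = 1.57e-08). XERICO (AT2G04240), a gene with a RING domain that DELLA proteins are known to induce, rose by 0.30 ± 0.076 in col0 (edgeR adjusted p = 0.00631) and 0.46 ± 0.075 in pip2 (adjusted p = 0.000284). GNL (AT4G26150), a GATA factor, rose in col0 by 0.995 ± 0.29 (adjusted p = 0.0156), and its relative GNC (AT5G56860) rose in pip2 by 0.57 ± 0.10 (adjusted p = 0.000585). MYB33 (AT5G06100) rose in col0 by 0.25 ± 0.081 (edgeR adjusted p = 0.0257). GASA14 rose in pip2 and is described with the genotypes.

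The other 4 genes of that list that passed were outside the naming rule and were singled out after their values were seen. GASA1 (AT1G75750), of the same peptide family, had 72.0, 108 and 95.2 CPM in col0 at low humidity against 134, 143 and 129 CPM at high humidity. In pip2 it had 49.3, 61.3 and 70.6 CPM against 137, 170.3 and 128 CPM. The humidities did not overlap in either genotype, and it rose by 0.56 ± 0.17 in col0 (edgeR adjusted p = 0.0375) and 1.26 ± 0.18 in pip2 (adjusted p = 0.000816), a difference between genotypes that did not pass (interaction 0.70 ± 0.25, adjusted p = 0.512). GASA4 (AT5G15230) fell in col0 by 0.48 ± 0.15 (edgeR adjusted p = 0.0326), from 349 ± 37.7 to 251 ± 21.1 CPM. The genes that fell in pip2 were PRE1 (AT5G39860) and PRE5 (AT3G28857), of a family of small helix-loop-helix proteins. PRE1 fell by 0.67 ± 0.13 (edgeR adjusted p = 0.00148) from 10.1 ± 0.606 to 6.30 ± 1.07 CPM, and PRE5 by 0.80 ± 0.25 (adjusted p = 0.0266) from 3.09 ± 0.359 to 1.77 ± 0.450 CPM. In col0 neither passed, but both were lower in high humidity with separate libraries. PRE1 stood at 9.67 ± 0.344 and 8.60 ± 0.707 CPM there, and PRE5 at 2.66 ± 0.156 and 1.74 ± 0.481 CPM. GASA4 in pip2 stood at 354 ± 54.3 and 293 ± 57.2 CPM, with overlapping libraries, and did not pass. PRE1, PRE5 and GASA4 did not pass the interaction test.

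Some of these calls were lost with single libraries left out. The log2 fold changes behind them kept their signs with each library left out. GNL lost its call without col0 low replicate 2 or col0 high replicate 1 (adjusted p = 0.0506 and 0.0580, range 0.00999 to 0.0580). MYB33 lost its call without col0 low replicate 2 or 3 or col0 high replicate 2 (0.0718, 0.132 and 0.0874, range 0.00951 to 0.132) and with limma on the TPM values (0.0692 and 0.0682). GASA1 in col0 lost its call without any of 7 libraries, which were col0 low replicates 1 and 3, the 3 of col0 high, pip2 low replicate 2 and pip2 high replicate 1 (0.0538 to 0.0959, range 0.0242 to 0.0959). The pip2 libraries are in neither group compared, and without either of those named the log2 fold change of GASA1 stayed at 0.56. GASA4 lost its call without any of the 3 col0 low libraries or col0 high replicate 2 or 3 (0.0502 to 0.105, range 0.00440 to 0.105). PRE5 lost its call without pip2 low replicate 1 or 2 or pip2 high replicate 2 or 3 (0.0569 to 0.106, range 0.0175 to 0.106). The calls of PRE1 and GASA1 in pip2 held with each library left out. The calls of GASA9 and XERICO for humidity held with each library left out, in both genotypes, as did those of KS, GID1C and RGL1. Of 3 transporter genes NPF3.1 (AT1G68570) passed, falling by 0.45 ± 0.084 in col0 and 0.51 ± 0.084 in pip2 (edgeR adjusted p = 0.000734 and 0.000347).

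Between genotypes at low humidity 3 of the 41 further genes passed, beside 2.98% of all genes. GASA14 (AT5G14920), of the same peptide family as GASA9, had 197, 183 and 188 CPM in col0 and 136, 140 and 142 CPM in pip2. The log2 difference was -0.44 ± 0.060 (edgeR adjusted p = 0.000246), and it held with each library left out. GNC was lower in pip2 (-0.42 ± 0.10, edgeR adjusted p = 0.0315) and GASA9 higher (0.89 ± 0.20, adjusted p = 0.0187). Without col0 low replicate 2 or pip2 low replicate 3 the count was 1. GASA9 lost its call without those and without col0 low replicate 1 (adjusted p 0.0658 to 0.104, range over all left-out libraries 0.00278 to 0.104) and in a fit of the 2 groups alone (0.109), and GNC without any of 6 libraries: the 3 of pip2 low, col0 low replicates 1 and 2, and col0 high replicate 2 (0.0534 to 0.159, range 0.0224 to 0.159). The last of these is in neither group compared, and without it the log2 difference of GNC was -0.41. At high humidity edgeR called none of the 41, and 6 had an unadjusted p under 0.05, beside 1885 of all 21897 tested genes. DESeq2 and the fit of the 2 groups alone each called 1, GASA9 (adjusted p = 0.0439 and 0.0453, over all alternatives 0.0439 to 0.569). RGL3 (AT5G17490), another DELLA gene, was higher in pip2 with separate libraries at both humidities but did not pass. Its log2 difference was 0.49 ± 0.17 at low humidity (edgeR adjusted p = 0.154) and 0.32 ± 0.17 at high humidity (adjusted p = 0.623). Libraries were separate for 8 of the 41 at each humidity, beside 19.6% and 14.0% of all genes.

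GASA14 was the 1 gene of the 41 that passed the interaction test. At an unadjusted p under 0.05 there were 4 of the 41, beside 1616 of all 21897 tested genes. For the other genes, a call in 1 genotype alone is not a shown difference between genotypes, nor are their responses shown to be alike. At high humidity it stood at 203 ± 5.55 CPM in col0 and 208 ± 14.98 CPM in pip2, so the genotypes were apart at low humidity only. The interaction was 0.47 ± 0.085 on the log2 scale (edgeR adjusted p = 0.0167). It was lost without col0 low replicate 1 (adjusted p = 0.0599), col0 high replicate 1 or 2 (0.0539 and 0.0696) or pip2 low replicate 1 (0.0525), in a range of 0.00899 to 0.0696, and with limma on the TPM values (0.0895 and 0.0932).

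None of the 4 KNOX genes, STM, KNAT1, KNAT2 and KNAT6, passed in edgeR in any comparison. At an unadjusted p under 0.05 there was 1 at low humidity between genotypes and 1 in the interaction, and 0 in the other comparisons. Among all 21897 tested genes 3006 and 1616 had such a p in those 2 comparisons. KNAT1 (AT4G08150) gave the lowest p in both, with a log2 difference of 0.26 ± 0.086 in pip2 against col0 at low humidity (edgeR adjusted p = 0.146) and an interaction of -0.33 ± 0.12 (adjusted p = 0.444). STM (AT1G62360) stood between 42.4 ± 4.61 CPM and 48.0 ± 4.12 CPM in the 4 groups.

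The genes most like GA2ox8 over the 12 libraries were RR14 (AT2G01760, Pearson r = 0.991 of log2 CPM), AT5G37540 (r = 0.972) and FLA13 (AT5G44130, r = 0.959). RR14, a cytokinin response regulator, stood at 35.1 ± 1.36 and 39.5 ± 2.86 CPM in col0 at low and high humidity and at 28.1 ± 2.24 and 37.3 ± 1.02 CPM in pip2. FLA13, a fasciclin-like arabinogalactan protein gene, stood at 48.0 ± 6.54, 66.9 ± 2.72, 18.3 ± 3.01 and 58.5 ± 10.9 CPM in the same order. All 3 were lowest in pip2 at low humidity, like GA2ox8. The genes most like RGA were AT1G66180 (r = 0.971), AT1G72275 (r = 0.960) and FBA6 (AT2G36460, r = 0.958), an aldolase gene. Those most like GA2ox1 were AT2G37710 (r = 0.975), AT5G20190 (r = 0.956) and AT2G47370 (r = 0.954). These values describe 12 libraries of 4 groups, share their libraries and depth, and were picked as the highest among the 21897 tested genes.

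Some markers of other tissues also differed with humidity, and the genes of a list did not all move alike. Of the 5 anther markers, all in the table and none at 0 in any group, 2 rose in col0 and 1 in pip2, and their median log2 fold change was -0.27 in col0 and 0.081 in pip2. GRP17 rose in both genotypes (0.55 ± 0.13 and 0.40 ± 0.13, edgeR adjusted p = 0.00493 and 0.0327) and GRP19 in col0 (0.47 ± 0.14, adjusted p = 0.0226); both encode proteins of the pollen coat. The other 3, A9, AMS and DYT1, did not pass, with log2 fold changes of -0.57 ± 0.26, -0.27 ± 0.20 and -0.49 ± 0.48 in col0. The list's summed level is mostly GRP17 and GRP19, and it was 2431 to 3291 CPM in col0 at low and 3365 to 4359 CPM at high humidity, and 2850.1 to 3710.5 and 3868 to 4351 CPM in pip2.

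Of the 4 photosynthetic markers, none at 0, LHCB1.1, LHCB2.2 and LHCA1 rose in both genotypes (list median 0.52 in col0 and 0.46 in pip2). RBCS1A, the most abundant, did not pass, at 6183 ± 462 and 6018 ± 138 CPM in col0 and 5829 ± 692 and 5777 ± 227 CPM in pip2. The list summed to 8795 to 9827 and 10363 to 10874 CPM in col0, and to 8164 to 10066 and 10401 to 11012 CPM in pip2. Of the 4 vascular markers, none at 0, CESA4, CESA7 and CESA8 rose in col0 (list median 0.38), and edgeR called 0 of the 4 in pip2. There 1 of the 4 had an unadjusted p under 0.05, beside 7802 of all 21897 tested genes. The vascular markers summed to 151 to 173 and 200.3 to 220.1 CPM in col0, and to 162 to 175 and 161 to 201 CPM in pip2. Between genotypes at low humidity, where GA2ox2 and GA2ox8 differed, these 3 sums overlapped, while the meristem and flower markers summed to 266 to 289.9 CPM in col0 and 296 to 299.7 CPM in pip2. The largest part of that sum was the flower gene AP1, at 166 ± 14.8 and 179 ± 12.1 CPM, with overlapping libraries. The part of all these markers in the results was not tested.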

How the data were processed

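The members and gene lists were chosen with earlier results of these data known. Per the submitters' processing notes, Trimmomatic 0.39, HISAT2 2.2.1, featureCounts 2.0.6 and TAIR10 were used; strandedness and the treatment of reads with several matches are not given in the sources used here. The deposited table holds raw counts per gene, not normalized, and the TPM table holds the authors' TPM values, with none for 2537 genes. Every gene of the count table has at least 1 count in col0 low replicate 1, so genes at 0 in that library are absent from the table. Absence from the table therefore does not show that a gene was at 0 in the other libraries. Names and gene order came from the TAIR10.1 annotation. No coordinates or sequences are printed.

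Genes were filtered with filterByExpr (minimum count 10, minimum total 15), scaled by TMM (factors 0.972 to 1.04) and fitted with edgeR 4.0.16 in R 4.3.3 (robust quasi-likelihood, 1 mean per group, 12 libraries). Tests were two-sided with Benjamini-Hochberg adjustment over all tested genes at 0.05. Each SE was taken as |log2 fold change| divided by the root of the F statistic. "Rose" and "fell" mark called genes. The named genes are the 10, PIP2;5, up to 4 called genes with the smallest adjusted p per list and comparison (else the smallest p), and 3 pattern neighbours for each of the 3 members with the smallest adjusted p. CPS (AT4G02780) and GA2ox3 (AT2G34555), which the rule also names, passed in no comparison in edgeR. GASA1, GASA4, PRE1 and PRE5 were added after their values were seen. The script was tested on simulated data with set changes in 200 genes. The interaction test recovered 20.9%, 68.7% and 98.5% of log2 changes of 0.5, 1 and 2, and 8.76% of its calls were false. The tests between 2 groups recovered 41.8% to 56.7% of changes of 0.5 and 77.6% to 86.6% of changes of 1. Of their calls 5.1% to 6.4% were false. Replicates of a group differed beyond sampling noise (chi-square per degree of freedom 4.85 to 11.4). Same-numbered libraries deviated together (every correlation over 0.1) for humidity in col0 and genotype at low humidity, at 0.158 to 0.373. In the other comparisons only some did. For replicates 1, 2 and 3 the values were -0.0303, 0.207 and 0.0478 for humidity in pip2. For genotype at high humidity they were -0.00923, 0.220 and 0.235. The labels do not say what a number marks. Alternatives were DESeq2 1.42.0, limma 3.58.1 on log2(TPM + 1) and log2(TPM + 0.1), other filters and scaling, a replicate block, fits of 2 groups, left-out libraries and, added after seeing the data, a fit without the robust option.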

Additional observations from a re-analysis of the deposited data

Results flagged for a closer look

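The humidity response of GASA14 was larger in pip2 than in col0 by 0.47 on the log2 scale, a difference between genotypes that passed the interaction test. The gene rose in pip2 (0.58 ± 0.060, edgeR adjusted p = 2.96e-06) from 139 ± 3.07 to 208 ± 14.98 CPM, while col0 stood at 189.5 ± 7.22 and 203 ± 5.55 CPM. None of the 10 members was flagged in this way.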

How the results depend on the processing

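The calls of GA2ox2 and RGA in col0, of GA2ox1, GA2ox8 and RGA in pip2 and of GA2ox2 and GA2ox8 between genotypes at low humidity kept direction and call under all alternatives tried. Counts of members called with single libraries left out were 2 to 4 in col0, 3 to 4 in pip2 and 2 to 3 for genotype at low humidity, and 0 elsewhere. With a replicate block all genes called numbered 1085 (652 without) for genotype at low humidity, 314 (129) at high humidity and 197 (97) for the interaction; beside GA2ox1 and GAI in col0 the block changed no member's call. DESeq2 called 239 and 185 genes for genotype at high humidity and the interaction, and limma on TPM called 46 and 45 (pseudocounts 1 and 0.1) for the interaction. With left-out libraries the numbers were 390 to 809 and 78 to 154 for genotype at low and high humidity and 32 to 110 for the interaction. Of the wider genes, 1 was called at high humidity between genotypes by DESeq2 and by the 2-group fit, 0 in the interaction by limma on TPM, 1 to 3 at low humidity with left-out libraries and 0 to 1 in the interaction. The cause was not tested. Signs turned only for values that passed under no setting that turned them. For left-out libraries the log2 ranges were, for humidity in col0, -0.0308 to 0.61 for GA2ox4 and -0.0809 to 0.24 for GA2ox6, and in pip2 -0.26 to 0.0610 for GA2ox2. For genotype at low humidity they were -0.19 to 0.0633 (GA20ox1), -0.0165 to 0.18 (GA2ox1), -0.11 to 0.53 (GA2ox4) and -0.0932 to 0.30 (GA3ox1). At high humidity they were -0.59 to 0.14 (GA2ox6) and -0.000167 to 0.36 (GA3ox1). In the interaction they were -0.11 to 0.15 (GA20ox1), -0.15 to 0.49 (GA2ox4), -0.0709 to 0.32 (GA3ox1), -0.00696 to 0.0765 (RGA) and -0.13 to 0.0271 (NPF3.1). On TPM (pseudocounts 1 and 0.1) GA2ox6 in col0 was -0.0216 and -0.0258, and in the interaction GA20ox1 was -0.00419 and -0.00714, RGA -0.00256 and -0.00236, and GA2ox4 -0.0247 with 0.1. At 12 to 61 counts per library, small changes of GA2ox4 and GA2ox6 were not detectable.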

Other observations

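Relative to CPM, and after a factor per library, the authors' TPM of GA2ox6 and GA2ox8 varied by 1.32-fold and 1.23-fold over the 12 libraries, against 1.01-fold for GAI and 1.02-fold for RGA, so the TPM are not a plain rescaling of the deposited counts. GA3ox2, a second gene of the activating step, had 0 to 6 counts per library and was not tested.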
